A study of Mus musculus with 10 samples.

Results

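The genes of the T cell receptor complex and its coreceptors were examined in cardiac tissue of male HIPK2 knockout and wild-type mice. The set comprised 10 genes: the CD3 chains Cd3d, Cd3e and Cd3g, the zeta chain Cd247, the coreceptors Cd4, Cd8a and Cd8b1, the adhesion receptor Cd2, and the kinases Lck and Zap70. They were taken by gene name from the probes of the array. The set had 21 of the 56605 probes, and 8 of the 10 genes could be tested, among 20607 genes in all.

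Each of 10 samples of total RNA was labelled with cyanine-3 and hybridised alone to an Agilent oligonucleotide array. The 5 HIPK2 knockout samples came from C57BL/6 mice in which CRISPR editing had removed 56 bases within exon 2 of Hipk2, a frameshift, and the colony had been expanded by crossing with C57BL/6 wild type. The 5 wild-type samples were hearts without this change, and no age was given for either genotype. Nothing in the labels says that the numbered samples were separate animals, so p-values measure only the spread between these samples, which may be technical.

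On a T cell, the antigen receptor is held in one complex with the CD3 chains and the zeta chain, whose cytoplasmic tails carry the tyrosine motifs called ITAMs. The coreceptors CD4 and CD8 bind MHC class II and class I molecules and carry the kinase Lck to the receptor. Lck phosphorylates the ITAMs, and the phosphorylated motifs recruit the kinase ZAP-70. A heart holds few T cells beside its cardiomyocytes, fibroblasts, endothelial cells and macrophages, so low signal of these genes is usual in whole cardiac tissue.

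Levels are given as relative log2 signal, the log2 of a probe's processed signal over the 75th percentile of its array. A value of 0 is the brightness of that percentile, and negative values are dimmer. Differences are knockout minus wild type. Each has the standard error (SE) from a limma fit over all genes, and its p was adjusted over those genes by Benjamini and Hochberg's method. Each probe responds to its target differently, so levels of different probes are not read as relative amounts of transcript. Brightness served to choose the probe that represents a gene, and the summed signals of lists given below are weighted to their brightest probes. In bulk tissue, fewer cells of a type and less RNA per cell cannot be told apart.

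Probe placement differed between genes and between probes of one gene, and the sequences below are shown because these probes carried or lacked the signal described afterwards. Coordinates are on mouse build mm9, as the array files give them. The brightest Cd4 probe lay on chromosome 6, minus strand, 2995 bases nearer the 3′ end of the gene than the dimmer one. Capitals in the Cd4 and Cd3e sequences mark AATAAA, the letters of the common polyadenylation signal. The Cd247 probe lies in the coding sequence, and capitals mark the tyrosine codons of an ITAM.
Cd4 brightest probe, final 30 bases, chr6:124814711-124814740, minus strand: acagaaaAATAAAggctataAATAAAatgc
Cd4 second probe, chr6:124817706-124817765, minus strand: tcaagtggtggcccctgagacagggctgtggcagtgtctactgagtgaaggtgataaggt
Cd3e brightest probe, a stretch of 30 bases, chr9:44806831-44806860, minus strand: tgctaatgcaaaaggcAATAAAgtgtattg
Cd247 probe at background, chr1:167786567-167787585 including an intervening gap, plus strand: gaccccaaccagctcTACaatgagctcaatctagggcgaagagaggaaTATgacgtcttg
Cd8a probe at background, chr6:71323885-71323944, plus strand: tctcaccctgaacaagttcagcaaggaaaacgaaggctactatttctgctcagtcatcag

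The letters AATAAA, read on the probe's own strand, stood in 6 of the 21 probes of the set (28.6%) and in 9.77% of all 56605 probes. The reverse complement TTTATT stood in 0 of the 21 and in 3.85% of all probes. All 6 probes of the set with AATAAA passed the filter on background described next, against 5 of the 15 without it. Both Cd2 probes are among these 6 and share 51 bases of target, so they do not count as independent. Over all probes, 60.5% of those with the letters passed and 53.5% of those without. A match is a description of the letters and not a mapped cleavage site.

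A probe was tested where it was well above background, by the scanner software's flag, on 4 or more of the 5 arrays in either genotype or both. In the set 11 of 21 probes (52.4%) met this, close to the 54.2% of all probes. Cd3d, Cd3e, Cd247, Cd4 and Cd8b1 each had a probe well above background on all 10 arrays. The best Lck probe was above it on 4 of 5 knockout and 5 of 5 wild-type arrays. The probes that represent Cd2 and Zap70 in the test were each above it on 2 of 5 knockout and 5 of 5 wild-type arrays, so both genes were tested only through the wild-type arrays. A second Cd2 probe was above it on 3 of 5 knockout and 5 of 5 wild-type arrays. Cd3g, a chain that pairs with CD3 epsilon, and Cd8a, the alpha chain of CD8, were not well above background on any array, and neither was tested. The label of the set therefore holds for part of the complex only, since the data give no level for one CD3 chain and for the CD8 chain that forms both kinds of CD8 dimer.

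**Figure D1:**
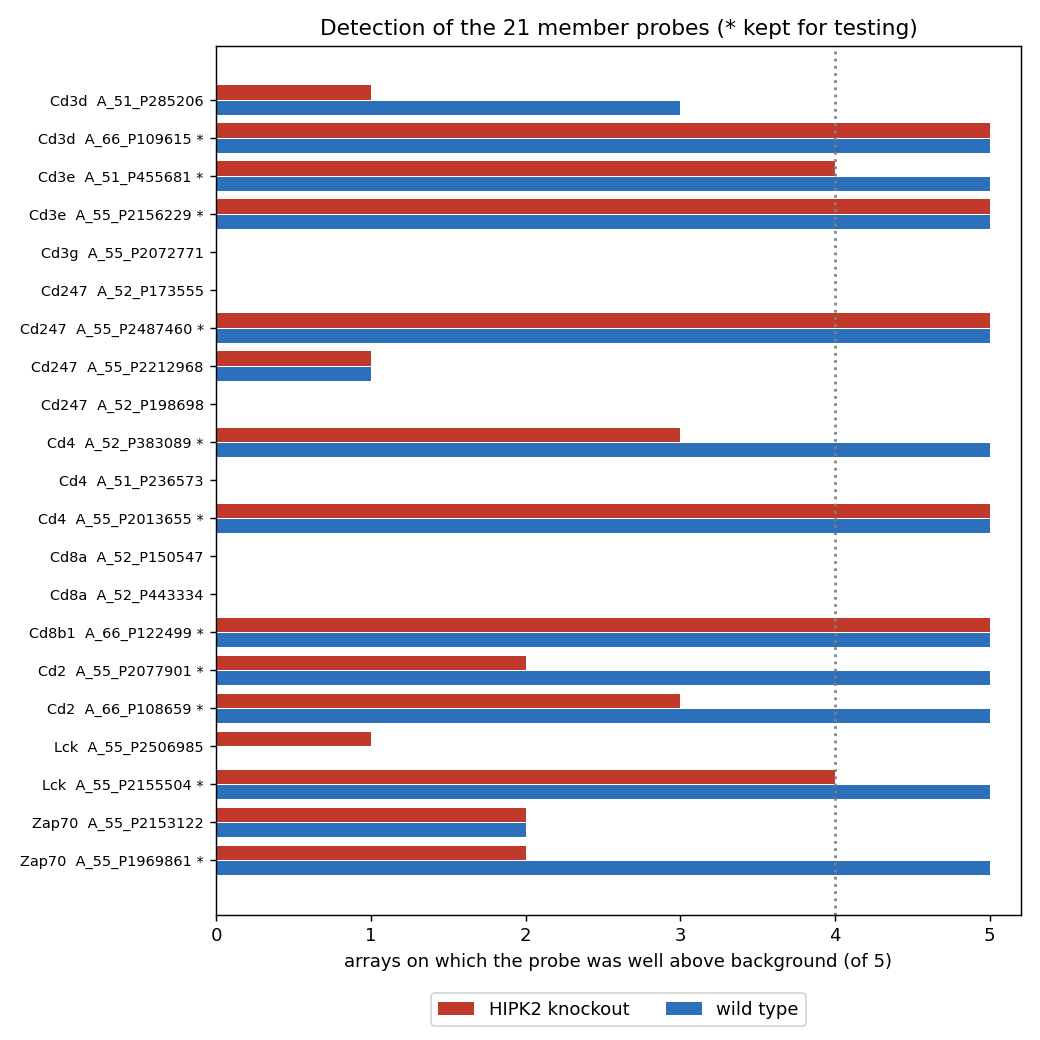
Number of arrays, of 5 per genotype, on which each of the 21 probes of the 10 genes was well above background, knockout above wild type. The probes of Cd3g and Cd8a are at 0 in both genotypes, and the probes that represent Cd2 and Zap70 reach 2 of 5 knockout arrays against 5 of 5 wild-type arrays.

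The deletion could not be read from the targeted gene on these arrays. The 3 Hipk2 probes, all well above background on all 10 arrays, gave differences of -0.01 ± 0.09, 0.04 ± 0.17 and 0.11 ± 0.10 (SE). The brightest measured 1.50, 1.88, 1.78, 1.30 and 1.42 in knockout hearts and 1.31, 1.96, 1.68, 1.55 and 1.18 in wild-type hearts. Whether any of these probes overlaps the deleted bases was not determined here, and the genotypes rest on the labels. Array signal at the 75th percentile was 285.8 to 460.5 in knockout and 462.1 to 542.3 in wild type, without overlap (two-sided exact permutation p = 0.00794, the smallest possible with 5 against 5). Of the spots, 51.9% ± 5.36 of those in knockout were well above background, against 58.6% ± 1.80 in wild type (SD over 5 arrays each, exact permutation p = 0.0397). Of the 2 slides, one held only wild-type replicates 1 and 2, and the other held all 5 knockout and the remaining 3 wild-type arrays. Their part in the results was not tested except by the fits within the second slide given below. Of 5 cardiomyocyte genes 0 passed in limma, and 4 had an unadjusted p under 0.05, beside 27.2% of all genes. Myh6, Tnnt2, Tnni3 and Actc1 averaged 9.26 to 9.58 in knockout and 8.63 to 9.15 in wild type, and Ryr2 averaged 4.90 in knockout and 4.91 in wild type.

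Of the 8 tested genes, 1 rose in knockout hearts, the coreceptor Cd4, and 0 fell. Over all 20607 genes 4.94% passed the same threshold of 0.05, with 1.97% higher and 2.97% lower in knockout, so 1 of 8 is a small count to read against that background. Unadjusted p was under 0.05 for 2 of the 8, Cd4 and Cd3e, and for 27.2% of all genes. The median difference over the 8 genes was 0.24, against 0.03 over all genes tested, with 5 differences positive and 3 negative. Cd4 was also the only one of the 8 whose knockout values all lay above the wild-type values, which held for 4.54% of all genes. Genotypes that did not overlap in either direction made up 8.98% of all genes.

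Cd4, the coreceptor of helper and regulatory T cells, measured 0.46, 0.60, 1.19, 0.51 and 0.65 in knockout hearts, against -0.28, -0.05, 0.11, 0.21 and 0.31 in wild-type hearts (chr6:124814711-124814770). Every knockout array lay above every wild-type array, and knockout replicate 3 stood above the other 4. Knockout hearts averaged 0.68 ± 0.29 and wild-type hearts 0.06 ± 0.23 (SD, n = 5 each), a difference of 0.62 ± 0.16 (SE, 95% interval 0.27 to 0.96) or 1.54-fold, with limma adjusted p = 0.0491. That p lies just inside the threshold. It was 0.0546 to 0.107 when any 1 array was left out, so the call was lost in all 10 of those fits, with differences of 0.49 to 0.68. Within the slide that held both genotypes the difference was 0.47 ± 0.17 (limma adjusted p = 0.164). On that slide knockout replicate 1 and the 3 wild-type arrays lay in one row and the other 4 knockout arrays in the other row, and a fit with slide and row both as blocks, chosen after seeing the data, sets knockout replicate 1 alone against those 3 wild-type arrays. That difference was 0.25 (limma adjusted p = 0.684), with the lone knockout array assumed to vary like the other arrays.

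The second Cd4 probe, the upstream sequence printed above, was well above background on 3 of 5 knockout and 5 of 5 wild-type arrays. It was thus tested only through the wild-type arrays. It measured -3.87, -3.69, -3.47, -3.59 and -4.00 in knockout hearts, against -4.54, -4.63, -3.67, -4.17 and -3.80 in wild-type hearts. Here the genotypes overlapped, and the difference was 0.44 ± 0.20 (SE, limma adjusted p = 0.185 over probes). The third Cd4 probe, 690 bases upstream of the bright one, was not well above background on any array. Which Cd4 transcript the bright probe reads was not determined. When p-values were adjusted over all 30693 kept probes, 0 of the 11 kept probes of the set passed, where 4.44% of all probes did, and the bright Cd4 probe had limma adjusted p = 0.0514. Unadjusted p was under 0.05 for 3 of these 11 probes, both Cd4 probes and the bright Cd3e probe.

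Cd3e, the epsilon chain, had the largest positive difference of the 8 genes and did not pass the test. Its bright probe (chr9:44806828-44806887) measured -0.95, -0.60, 0.00, -0.76 and -0.65 in knockout hearts, against -1.53, -2.09, -1.17, -0.95 and -0.80 in wild-type hearts. Knockout replicate 3 was again the highest array, wild-type replicates 1 and 2 were the lowest, and the ranges overlapped. The difference was 0.72 ± 0.25 (SE, 95% interval 0.17 to 1.27), with limma adjusted p = 0.104. Within the shared slide it was 0.38 ± 0.20 (limma adjusted p = 0.309), and knockout replicate 1 alone exceeded the 3 wild-type arrays of its row by 0.03. The second Cd3e probe (chr9:44807254-44807313) measured -3.11, -3.57, -2.55, -3.61 and -3.35 in knockout hearts, against -3.60, -3.27, -3.62, -3.54 and -3.15 in wild-type hearts. Its difference was 0.20 ± 0.20 (SE, limma adjusted p = 0.544 over probes), so the probes of this gene differed in the size they gave.

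Cd3d, the delta chain that also pairs with epsilon, showed no separation. Its kept probe (chr9:44794452-44794511) measured -2.65, -3.27, -2.68, -3.11 and -2.92 in knockout hearts, against -3.46, -3.13, -2.42, -2.68 and -3.17 in wild-type hearts. The difference was 0.05 ± 0.20 (SE, 95% interval -0.40 to 0.49, limma adjusted p = 0.904). The interval leaves room for a change of moderate size in either direction. The second Cd3d probe was well above background on 1 knockout and 3 wild-type arrays and was not tested. It averaged -5.15 in knockout and -5.06 in wild type.

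Cd247 is the gene of the zeta chain, which carries most of the receptor's ITAMs. Only 1 of its 4 probes passed (chr1:167791567-167791626). That probe measured 0.12, -0.11, 0.78, -0.27 and -0.13 in knockout hearts, against -0.03, 0.56, -0.09, -0.23 and 0.32 in wild-type hearts. Knockout replicate 3 was the highest array, but the genotypes overlapped over most of their range. The difference was -0.03 ± 0.21 (SE, 95% interval -0.50 to 0.44, limma adjusted p = 0.943). Of the other Cd247 probes, the coding probe printed above and one other were not well above background on any array, and the remaining one was above it on 1 knockout and 1 wild-type array. No other probe of the gene gave a level to set beside the bright one. The array lists the bright probe and the coding probe under different transcripts. Whether the bright probe reads the transcript with the ITAM codons was not determined.

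Cd8b1, the beta chain of CD8 found on cytotoxic T cells, did not pass the test, and its wild-type values split by slide. Its single probe (chr6:71286937-71286996) measured -2.31, -2.45, -2.13, -2.50 and -2.53 in knockout hearts, against -3.82, -3.91, -2.85, -2.11 and -2.54 in wild-type hearts. Wild-type replicates 1 and 2, alone on their slide, were the lowest arrays, while wild-type replicate 4 was the highest of all 10. The difference was 0.66 ± 0.32 (SE, 95% interval -0.04 to 1.37, limma adjusted p = 0.205). Within the shared slide it was 0.12 ± 0.17 (limma adjusted p = 0.725). Without its alpha chain above background, no value of the CD8 dimer as a whole can be given.

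**Figure D2:**
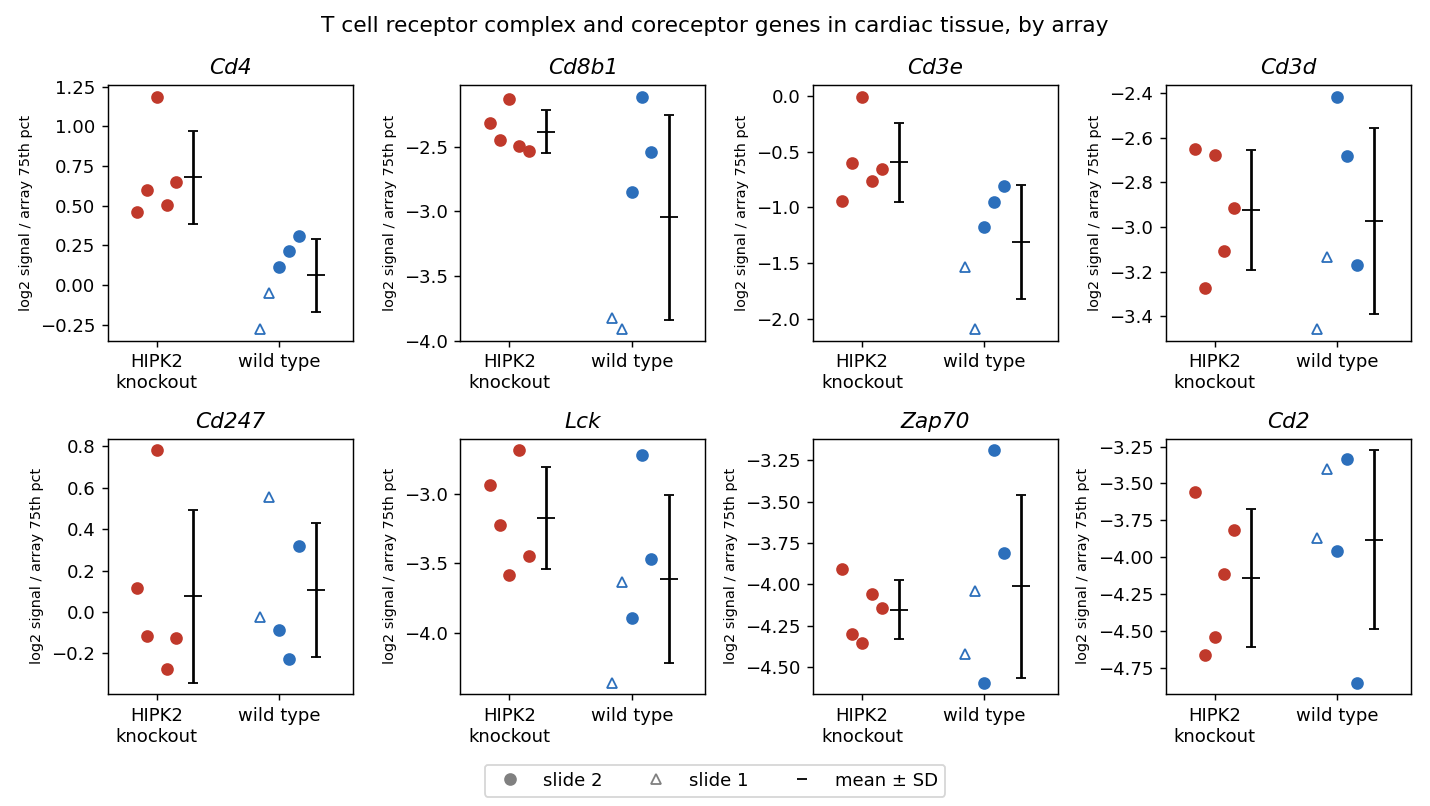
Relative log2 signal of the 8 tested genes on each array, 5 knockout arrays to the left of 5 wild-type arrays, with the mean and SD. Triangles mark the wild-type arrays of the separate slide (slide 1). Only Cd4 separates the genotypes, and wild-type replicates 1 and 2 are the lowest arrays for Cd4, Cd3e and Cd8b1.

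Lck, the kinase bound to the coreceptor tails, measured -2.94, -3.23, -3.58, -2.69 and -3.45 in knockout hearts, against -4.36, -3.63, -3.89, -2.72 and -3.47 in wild-type hearts (chr4:129225614-129225673). The ranges overlapped, with wild-type replicate 1 well below the rest. The difference was 0.44 ± 0.28 (SE, 95% interval -0.18 to 1.05, limma adjusted p = 0.33). Within the shared slide it was 0.18 ± 0.28 (limma adjusted p = 0.739). The second Lck probe was above background on a single array, a knockout one.

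Zap70, the kinase recruited to phosphorylated ITAMs, measured -3.91, -4.30, -4.35, -4.06 and -4.15 in knockout hearts, against -4.42, -4.04, -4.59, -3.19 and -3.81 in wild-type hearts (chr1:36839542-36839601). The wild-type arrays spread over a wider range that enclosed every knockout value. The difference was -0.14 ± 0.23 (SE, 95% interval -0.65 to 0.37, limma adjusted p = 0.724). The second Zap70 probe was well above background on 2 knockout and 2 wild-type arrays and was not tested. It averaged -4.41 in knockout and -4.89 in wild type.

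Cd2, a receptor for CD48 in the mouse that aids T cell adhesion, measured -3.56, -4.67, -4.54, -4.11 and -3.82 in knockout hearts, against -3.87, -3.40, -3.96, -3.33 and -4.85 in wild-type hearts (chr3:101079831-101079890). The lowest array was a wild-type one and the ranges overlapped. The difference was -0.26 ± 0.30 (SE, 95% interval -0.93 to 0.41, limma adjusted p = 0.609). A second Cd2 probe shares 51 bases of target with the first and is no independent reading; its difference was -0.50 ± 0.37 (limma adjusted p = 0.408 over probes). The probes representing Zap70 and Cd2 were well above background on 2 knockout arrays each, and the second Cd2 probe on 3, so these knockout means lie near the limit of detection.

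**Figure D3:**
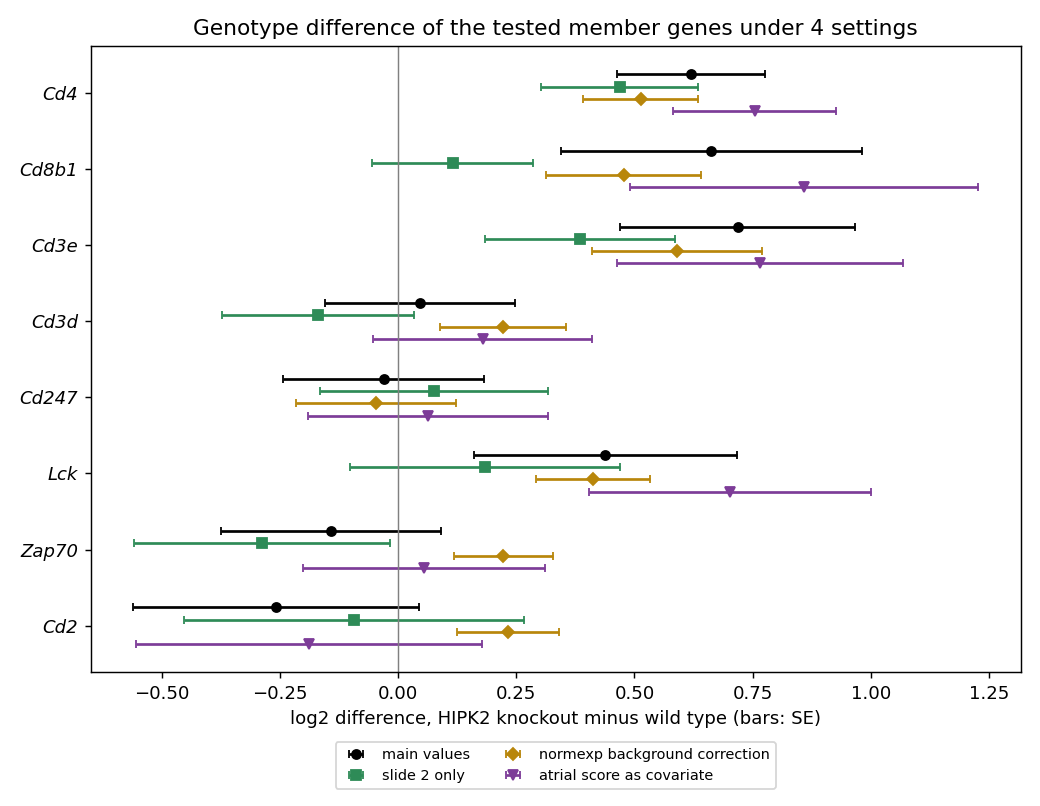
Difference in relative log2 signal, knockout minus wild type, for the 8 tested genes, with bars of 1 SE. Symbols give all 10 arrays, the shared slide (slide 2) only, normexp background correction and the atrial score as covariate. Cd4, Cd3e, Cd8b1 and Lck are positive under all 4 settings, and 5 of the 8 differences are smaller in size within the shared slide than over all arrays.

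The 10 probes that failed the filter belonged to 7 genes, and 6 of them were not well above background on any array. For such spots the scanner software can write a substitute in place of a measured signal, which stood in 26 of 50 knockout values and 21 of 50 wild-type values of these probes. The substitute lay at -7.21 to -5.27 on knockout arrays and at -7.37 to -6.92 on wild-type arrays. Values at such a floor have no order between arrays, so no direction was read from the 9 positive of 10 mean differences at these probes.

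Background treatment changed which genes passed. With normexp correction of the spot and local background signals, 3 of the 8 genes passed: Cd4 (0.51 ± 0.12, limma adjusted p = 0.0214), Cd3e (0.59 ± 0.18, limma adjusted p = 0.0445) and Lck (0.41 ± 0.12, limma adjusted p = 0.0394). The share of all genes that passed under that correction was 15.1%, with 10.8% higher in knockout. Cd2 and Zap70 changed sign there, to 0.23 and 0.22. The 6 member probes not well above background on any array also had positive normexp differences, of 0.26 to 0.61. The normexp differences of Cd4, Cd3e and Lck lie within that range, and the reason for it was not tested.

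The members did not vary together as one block. After each genotype's mean was removed, Pearson's r over the 10 arrays was 0.87 between Lck and Zap70, 0.81 between Cd3e and Cd4 and 0.80 between Cd3e and Cd8b1, but 0.08 between Cd4 and Lck and -0.60 between Cd3e and Cd2. These are descriptions over arrays that share slide and signal, with no test. Knockout replicate 3 was the highest array for 3 of the 8 genes (Cd4, Cd3e and Cd247) and wild-type replicate 4 for 3 others (Cd8b1, Cd2 and Zap70).

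Among other genes of T cell receptor signalling, Bcl11b and Cblb rose and Lcp2 fell, each at the brightest kept probe. The other kept probes of Cblb and Lcp2 did not pass. Of 49 listed genes 48 were on the array, 31 were tested and 7 were not above background on any array. Of the 31, 2 rose, 1 fell and 28 did not pass, with a median difference of -0.02, beside 0.03 over all genes. Unadjusted p was under 0.05 for 10 of the 31, and these counts stand beside 4.94% called and 27.2% at an unadjusted p under 0.05 over all genes. The 3 that passed do not form one step of the pathway.

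Bcl11b, a transcription factor that maintains T lineage identity, measured -2.69, -2.41, -2.73, -2.11 and -2.49 in knockout hearts, against -3.49, -3.43, -3.27, -3.23 and -4.01 in wild-type hearts. The genotypes did not overlap, and the difference was 1.00 ± 0.17 (SE, limma adjusted p = 0.0142), or 2.01-fold. The other Bcl11b probe was not well above background on any array. Cblb, a ubiquitin ligase that restrains T cell activation, measured 1.92, 1.67, 2.25, 2.04 and 1.55 in knockout hearts, against 1.03, 0.87, 1.40, 0.82 and 1.19 in wild-type hearts. Its difference was 0.82 ± 0.16 (SE, limma adjusted p = 0.0209), without overlap, but 2 other kept Cblb probes gave -0.11 ± 0.12 and -0.65 ± 0.28 and did not pass over probes. Within the shared slide Cblb did not pass (0.75 ± 0.19, limma adjusted p = 0.0742), and without wild-type replicate 4 its limma adjusted p was 0.0525.

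Lcp2, the adaptor SLP-76 that is phosphorylated by ZAP-70 and is also expressed in platelets and myeloid cells, measured -3.61, -3.46, -3.39, -3.82 and -3.15 in knockout hearts. In wild-type hearts it measured -2.76, -2.42, -2.59, -2.03 and -2.46, above every knockout array. The difference was -1.03 ± 0.16 (SE, limma adjusted p = 0.0108). The probe was well above background on 3 of 5 knockout and 5 of 5 wild-type arrays, so this gene too was tested only through the wild-type arrays. A second kept Lcp2 probe gave 0.11 ± 0.27, and did not pass over probes (limma adjusted p = 0.829). Bcl11b and Lcp2 kept their calls within the shared slide and in each of the 10 fits without 1 array. Those fits used the probes kept over all 10 arrays, so for Lcp2 they carry the same selection by wild-type arrays. With the filter requiring all 10 arrays, Lcp2 was not tested. With normexp Bcl11b was at 0.65 ± 0.10 (limma adjusted p = 0.00345) and Lcp2 at -0.32 ± 0.10 (limma adjusted p = 0.0453). With the mean of kept probes neither Lcp2 (-0.46, limma adjusted p = 0.0893) nor Cblb (0.02, limma adjusted p = 0.912) passed, and with the replicate block Lcp2 was at limma adjusted p = 0.0532 and Cblb at 0.0508.

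Genes of the T cell identity list did not pass the test. Bcl11b, which passed, was placed in the receptor signalling list and not in this one. Of 13 tested genes of T cell identity 0 passed, with a median of 0.16 and Foxp3, the factor of regulatory T cells, at 0.66 ± 0.23 (SE, limma adjusted p = 0.108). Ccr7, the receptor that guides naive T cells to lymph nodes, was at 0.39 ± 0.16 (limma adjusted p = 0.148). Tcra and Tcrb-J, names under which the array lists receptor chain transcripts, and Cd96 were not above background on any array. Among thymocyte genes 0 of 3 tested passed in limma, 0 of 3 had an unadjusted p under 0.05, and Rag1, Rag2, Ptcra, Aire, Psmb11 and Foxn1 were not above background on any array. The summed signal of the T cell identity list was 11.4 to 13.1 on knockout arrays and 11.7 to 12.3 on wild-type arrays, in multiples of the array's 75th percentile, and is mostly that of the bright probes of Thy1, S1pr1 and Satb1.

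Neighbouring lymphocytes gave no called gene either. Of B cell genes 0 of 7 passed, with a median of 0.03 and Pax5, the B lineage factor, at 0.81 ± 0.35 (SE, limma adjusted p = 0.17) and Cd22 at 0.39 ± 0.24 (limma adjusted p = 0.315). Of natural killer and cytotoxic genes 0 of 5 passed, all 5 with positive differences, with a median of 0.45. The granule protease Gzma was at 0.54 ± 0.30 (limma adjusted p = 0.273) and perforin, Prf1, at 0.45 ± 0.26 (limma adjusted p = 0.286). Ncr1, Klrb1c, Klre1, Gzmb, Tbx21 and Txk were not above background on any array. Over T cell, B cell and natural killer lists together 3 of 25 genes had an unadjusted p under 0.05 in limma, beside 27.2% of all genes. With normexp 5 of the 25 passed, all of them higher in knockout: Ccr7, Fcmr, Foxp3, Klrk1 and Pax5. Of all genes 15.1% passed under that correction, and 10.8% were higher in knockout.

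Markers of other cell types are given here beside Cd4. Of 5 genes of leukocytes in general 0 passed in limma, and 3 had an unadjusted p under 0.05, beside 27.2% of all genes. Their median difference was -0.47, with 4 negative and 1 positive, that of Ptprc at 0.01 ± 0.20 (SE). Laptm5 stands in this list and in that of macrophages. All 9 macrophage and monocyte genes had negative differences. In limma 0 of 9 passed and 8 of 9 had an unadjusted p under 0.05, beside 27.2% of all genes. The summed signal of the 9 was 74.4 to 92.5 on knockout arrays and 92.6 to 115 on wild-type arrays, and is mostly that of the bright Lyz2 probe. The mean of their log2 signals overlapped between genotypes, at 1.43 to 1.97 in knockout and 1.94 to 2.21 in wild type. Some mouse dendritic cells carry CD4, and of 4 tested dendritic cell genes 1 fell, Zbtb46 (-0.61 ± 0.09 SE, limma adjusted p = 0.0115), while 2 of the 4 differences were positive. The list's summed signal, 63.0 to 111 in knockout and 31.2 to 74.7 in wild type, is mostly that of the bright Siglech probe (0.47 ± 0.28 SE, limma adjusted p = 0.296), which did not pass. Of 3 tested lymph node stroma genes 1 rose, the chemokine Ccl21a (0.84 ± 0.17 SE, limma adjusted p = 0.0266), while Ccl19 was at -0.95 ± 0.32 (limma adjusted p = 0.0973) and did not pass. The summed signal of that list, 7.37 to 14.2 in knockout and 5.36 to 7.41 in wild type, is mostly that of the bright Ccl21a probe. Atrial and fat genes had median differences of -3.00 and -2.01, with 0 genes passing and an unadjusted p under 0.05 for 1 of 3 atrial and 3 of 4 fat genes in limma, from summed signal of 1.71 to 12.4 in knockout and 1.30 to 102 in wild type for atrium, and 0.13 to 0.77 in knockout and 0.28 to 6.82 in wild type for fat. With the atrial genes' mean as a covariate, the Cd4 difference was 0.75 (limma adjusted p = 0.0877), and none of Bcl11b, Cblb and Lcp2 passed. The unadjusted limma p of Cd4 was 0.00143 with the covariate and 0.00234 without it. Over all genes 57 were called with it and 1017 without it. The part of the other cell types in the Cd4 result was not tested.

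**Figure D4:**
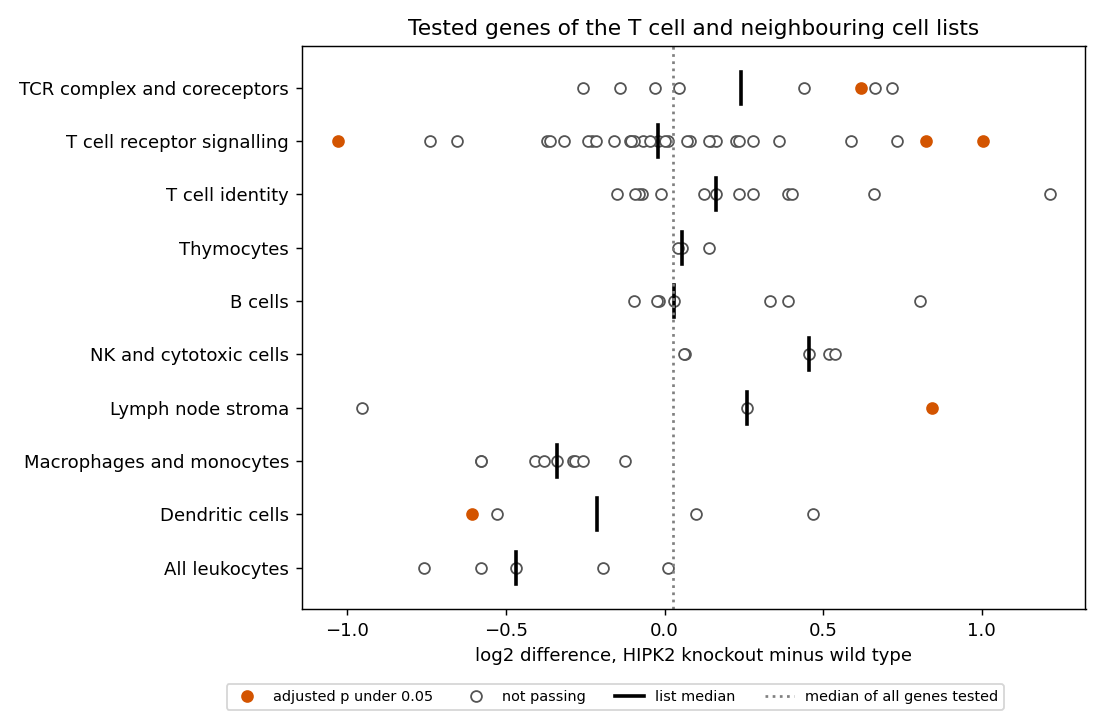
Differences in relative log2 signal, knockout minus wild type, of the tested genes in each list, with the median of each list as a bar and genes past the adjusted p threshold filled. The receptor genes have a median of 0.24, receptor signalling genes of -0.02 and macrophage genes of -0.34.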

How the data were processed

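Spot intensity on a linear scale was deposited by the authors for 10 one-colour Agilent arrays, written by Agilent Feature Extraction 10.7.1.1 per the submitters' processing notes. The software had subtracted background from the processed intensity within each array and had not scaled arrays to each other, per the file headers. A deposited value table on a log2 scale, whose columns shared a median of 4.74, served only as an alternative. Its background treatment was not given in the sources used here.

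From the 59305 spots that are not controls, outlier-flagged spots were dropped, log2 processed intensity minus log2 of the array's 75th percentile was taken, and spots were averaged into 56605 probes. A RefSeq gene table named 32994 probes by accession. After the filter on background, 30693 probes of 20607 genes remained, each gene read by its brightest kept probe. The genotype comparison used limma 3.58.1 in R 4.3.3, with Benjamini-Hochberg adjustment and a threshold of 0.05. The 10 values per array measure were compared by exact permutation over 252 arrangements. The number of arrays limits the precision. The fit was tested on simulated data.

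Named genes are the members with every probe. From the lists they are up to 6 genes past the threshold, or else the 2 with the smallest p, and for each member the 2 genes most alike over arrays and the nearest tested gene on each side. From the other marker lists, genes named with values were chosen after their values were seen. Members and lists were chosen with earlier results of these data known. Alternatives were normexp with an offset of 50, quantile normalization, the deposited table, other filters, the mean of kept probes, slide and replicate blocks, slide 2 only, an atrial covariate and leaving out each array. The replicate numbers did not pair the samples: same-numbered arrays correlated at -0.11 to 0.05 after removal of genotype means. Positions are mm9 coordinates from the array files, and no exon or UTR annotation was used.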

Additional observations from a re-analysis of the deposited data

Results flagged for a closer look

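Knockout replicate 3 stood apart at the bright Cd4 probe, at 1.19 relative log2 signal, where the next knockout array was at 0.65 and the lowest at 0.46. The gap to the next array was 0.742 of the group's range, above Dixon's 95% value of 0.71 for 5 samples. Of 26 groups checked, 1 met this, and chance marks about 1 in 20. Without that array the Cd4 difference was 0.49 (limma adjusted p = 0.0546). The same array had the lowest 75th percentile of signal, 285.8, and the smallest share of spots well above background, 45.8%; their part in the Cd4 value was not tested.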

How the results depend on the processing

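The Cd4 difference stayed positive in 21 of 21 alternatives and passed in 2, normexp and a filter requiring all 10 arrays. The number of member genes called, 1 over all arrays, was 3 with normexp and 0 with quantile normalization, the deposited table, no filter, the mean of kept probes, slide as block, slide 2 only, replicate block, the atrial covariate, slide and array row as blocks, and each of the 10 fits with 1 array left out. Among the member probes 0 passed over probes and 1 over genes. All genes called numbered 1017, and 3111 with normexp, 173 with no filter, 458 on slide 2, 57 with the atrial covariate, 0 with slide and row as blocks (2788 at an unadjusted p under 0.05) and 282 to 940 with 1 array left out. Receptor signalling genes called numbered 3, and 7 with normexp, 1 with the replicate block, 0 with the atrial covariate or with slide and row as blocks, and 2 to 3 with 1 array left out. T, B and natural killer list genes called numbered 0, and 5 with normexp. The slide and row blocks were chosen after seeing the data and leave knockout replicate 1 alone against 3 wild-type arrays, so their counts of 0 say nothing about stability. With the replicate block, Cd4 was at 0.62 (limma adjusted p = 0.0808) and 164 genes were called; the numbers pair no samples. The difference in share of spots well above background was -8.36 to -5.23 percentage points with 1 array left out, with exact permutation p of 0.0159 to 0.0794. The cause of these changes was not tested.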

Other observations

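Genes whose values moved most like a member's over the 10 arrays, after removal of each genotype's mean, were found among 14166 named genes and are given as a description, since all points share slide and array signal. For Cd4 they were Erp27 (Pearson's r = 0.97, and 0.91 without the 2 arrays farthest from the median of Cd4) and Tbata (0.97 and 0.93), for Cd3e Pi16 (0.99 and 0.98) and Mcidas (0.97 and 0.94), and for Cd8b1 Prkci (0.97 and 0.94) and Ruvbl2 (0.96 and 0.92). Lck was most like Adamts1 (0.95) and Zfp329 (0.94), and Zap70 most like Ecscr (0.94) and Dipk2a (0.94). Cd2 was most like Serpinb9 (0.90) and Serp1 (0.90), Cd3d most like Nkain2 (0.93) and Uggt1 (0.91), and Cd247 most like Astl (0.95) and Tcl1b2 (0.94). Tbata rose in knockout hearts (0.61, limma adjusted p = 0.0301) and Serp1 fell (-0.49, limma adjusted p = 0.0386).

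Of the nearest tested genes on either side of the members' loci, 14 in all, 0 passed in limma. An unadjusted p was under 0.05 for 2 of the 14, beside 27.2% of all genes. Differences of the 14 lay between -0.97 (Fam167b, beside Lck) and 0.60 (Mpzl2, beside the CD3 genes), and those beside Cd4 were -0.30 for Gpr162 and 0.34 for Ptms.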
